A study of Mus musculus with 6 samples.

Results

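Expression of 7 genes that handle glycogen in the lysosome, or that guard the structure of the glycogen particle, was examined in mouse embryo samples labelled as testis, at E12.5. The genes were taken by symbol: Gaa, Stbd1, Gabarapl1, Epm2a, Nhlrc1, Lamp2 and Tfeb. All 7 were among the 24470 genes of the table, and all 7 passed the filter on low counts that left 15577 genes for testing. Control embryos carried floxed Ppp1r3c alleles on both chromosomes with no Cre named (Ppp1r3c f/f), and the conditional knockout (cKO) embryos carried the same alleles together with Sf1-Cre. This transgene uses Nr5a1 (Sf1) sequences and acts in the somatic cells of the gonad, so germ cells keep the gene. Each of the 3 control and 3 cKO samples was made from 2 pooled pairs of gonads, so an embryo cannot be followed within a sample.

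Glycogen is broken down by 2 routes. In the cytosol, glycogen phosphorylase releases glucose units, whereas in the lysosome acid alpha-glucosidase (GAA) digests whole particles that autophagy has delivered, a process termed glycophagy. STBD1 binds glycogen and the autophagosome protein GABARAPL1, LAMP2 is a major protein of the lysosomal membrane, and TFEB is a transcription factor that switches on lysosomal and autophagy genes. Laforin (Epm2a), a glycogen phosphatase, and malin (Nhlrc1), an E3 ubiquitin ligase, act as a complex. In cultured cells that complex promotes the degradation of PTG, the product of Ppp1r3c, and loss of either partner causes Lafora disease, in which poorly branched glycogen builds up. Loss of GAA causes Pompe disease and loss of LAMP2 causes Danon disease.

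The libraries held between 16139487 and 44145158 counts, with control replicate 1 the shallowest. Ppp1r3c was at 24.4, 22.1 and 22.9 CPM (each count divided by its scaled library total) in the controls and at 4.71, 5.37 and 5.96 CPM in the cKO samples (edgeR log2 fold change -2.11, SE 0.111, adjusted p 0.000126). The sample cKO replicate 3 stood apart: Xist, which marks XX cells, was at 379 CPM there and at 0.369 to 1.0 CPM in the other 5 samples, and Fst, expressed by pre-granulosa cells, reached 50.9 CPM against no more than 2.02 CPM. The summed level of 4 Y-linked genes was 220 CPM in that sample and 258 to 277 CPM in the others. Of 19 tested germ cell markers, 17 lay below 0, with a median log2 fold change of -0.71. Of these 19 edgeR called 0, where it called 0.0385% of all tested genes. At an unadjusted edgeR p under 0.05 were 14 (73.7%, against 11.4% of all tested genes). DESeq2 called 2, where it called 0.779% of the 14243 genes with a DESeq2 adjusted p. The groups overlapped in this list, since the markers summed to 626 CPM in control replicate 1, below the 666 CPM of cKO replicate 1. The sums were 946 and 1020.1 CPM in the other controls, and 329 and 515 CPM in cKO replicates 2 and 3. Marker by marker, the groups did not overlap for 3 of 19, with cKO below (15.8%, against 15.6% of all tested genes). Summed macrophage markers, which matter for lysosomal genes, lay between 51.6 and 60.8 CPM in controls. In cKO samples they lay between 55.4 and 56.8 CPM. Of these markers 9 of 10 lay below 0 (median -0.090, and -0.22 to -0.042 with single samples left out). The 1 above 0 was Mrc1 (0.29). It alone had an unadjusted edgeR p under 0.05 and groups that did not overlap, where 11.4% and 15.6% of all tested genes did. The part that such differences play in the values below was not tested, and in bulk samples fewer cells of a type and less RNA per cell cannot be told apart.

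Because TFEB recognises the letters CACGTG, the promoters of these genes were searched for them. The windows ran from 250 bases before to 50 bases after each RefSeq start (GRCm38.p6, the same build as mm10). CACGTG reads the same on both strands. Every one of the 7 genes had a window, and Tfeb had several. The letters occurred in 1 of the 7 genes, Gaa, and in 8.09% of all 27025 genes with a window (7.15% of 32851 windows). They occurred in 9 of 25 lysosomal hydrolase genes, 5 of 16 lysosomal membrane protein genes and 4 of 11 V-ATPase genes with a window. Among autophagy genes they occurred in 4 of 24 of autophagosome formation, 2 of 11 cargo receptors and 0 of 3 Atg8 relatives, and in the TFE and mTORC1 list in 6 of 22. Among genes tied to laforin, malin or glycogen they occurred in 3 of 8 with a window, Gyg, Ppp1r3c and Ppp1r3d. Germ cell markers, which are not a lysosomal list, had the highest share of all lists searched, 7 of 17. In Ppp1r3c they lay within the longer form TCACGTGA, which was found in 1.12% of all genes and in 0 of the 7. Below are the 250 bases before the start of Gaa (plus strand, chr11:119267713-119267962) and of Ppp1r3c (minus strand, chr19:36736605-36736854), 5′ to 3′ on the strand of the gene. They are shown since they are the acid glucosidase gene and the targeted gene, and capitals mark CACGTG.
Gaa: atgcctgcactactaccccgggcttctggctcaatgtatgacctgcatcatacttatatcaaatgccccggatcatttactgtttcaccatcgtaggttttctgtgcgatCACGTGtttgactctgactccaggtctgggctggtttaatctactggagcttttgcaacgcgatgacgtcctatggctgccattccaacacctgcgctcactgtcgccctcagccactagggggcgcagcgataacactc
Ppp1r3c: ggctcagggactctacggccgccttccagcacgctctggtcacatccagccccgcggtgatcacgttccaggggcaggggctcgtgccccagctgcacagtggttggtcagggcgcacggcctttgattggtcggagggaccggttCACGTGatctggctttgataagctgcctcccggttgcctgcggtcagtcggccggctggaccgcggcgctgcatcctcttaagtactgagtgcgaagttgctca
The match begins 140 bases before the start of Gaa and 104 bases before that of Ppp1r3c. A match of letters is a description of the window and not evidence that the factor binds there.

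To ask whether lysosomal and laforin-malin genes differed when glycogen synthesis was reduced, the 7 genes were read out of the edgeR fit over all tested genes. None of them passed an adjusted p of 0.05. By edgeR 0 of 7 passed, where 0.0385% of all tested genes did. By DESeq2 0 of 7 passed, where 0.779% of the 14243 genes with a DESeq2 adjusted p did. At an unadjusted p under 0.05 edgeR had 0 of 7, against 11.4% of all tested genes. Log2 fold changes ran from -0.31 (Tfeb) to 0.12 (Epm2a), 5 above and 2 below 0. Their median was 0.020, beside -0.0034 over all tested genes. The groups did not overlap for 1 of 7 genes, Tfeb, and for 15.6% of all tested genes. For 1 gene with 3 samples in either group, the exact permutation test (two-sided) cannot go below p = 0.1.

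**Figure D1:**
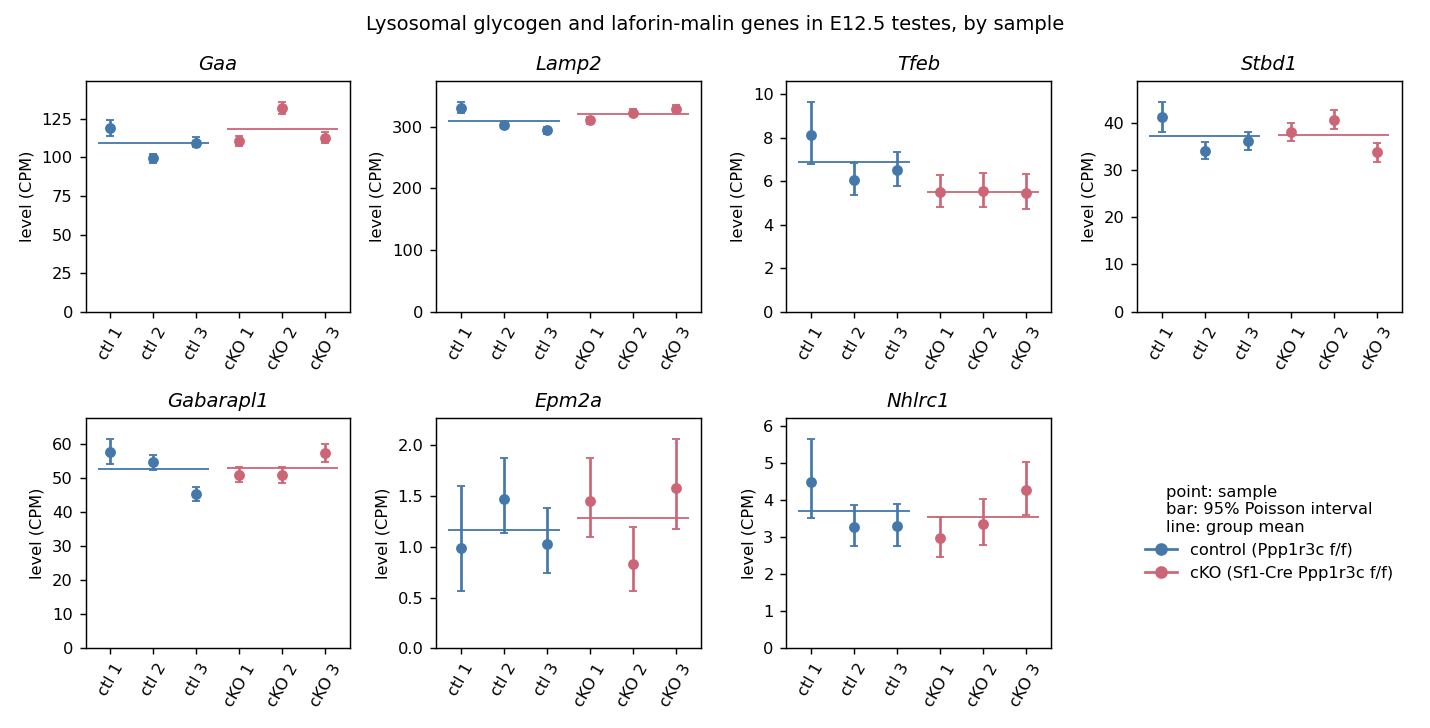
Level of each gene in CPM (vertical axes, from 0) in the 3 control and 3 cKO samples, with bars for the 95% Poisson interval of the count and lines for group means. Control and cKO points overlap for every gene except Tfeb, whose cKO samples sit between 5.47 and 5.53 CPM, below the lowest control at 6.06 CPM.

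The levels of the genes were first compared per kilobase of exon. Lamp2 was the highest in every sample, between 58.4 and 65.7 CPM per kb. Gabarapl1 (25.5 to 32.5 CPM per kb) and Gaa (24.9 to 33.1 CPM per kb) followed, and their ranges overlapped. Stbd1, between 15.3 and 18.6 CPM per kb, lay below both. Transcripts of the enzyme that digests lysosomal glycogen, of the glycogen-binding adaptor and of the membrane protein were thus all well detected in these samples. The mean of Stbd1 was 10.7 times that of the next gene. Nhlrc1 (1.29 to 1.96 CPM per kb), Tfeb (1.37 to 2.03 CPM per kb) and Epm2a (0.773 to 1.46 CPM per kb) formed a lower group, in which each range overlapped the next. The exons of Epm2a were counted over the 1.079 kb inside the span of the deposited table. The whole GENCODE exon length of 3.287 kb reaches past that span, so dividing these counts by it would understate the level. With that length, an alternative chosen after the data were seen, the mean of Epm2a would be 0.372 in place of 1.13 CPM per kb. Its range would then lie below that of Tfeb.

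**Figure D2:**
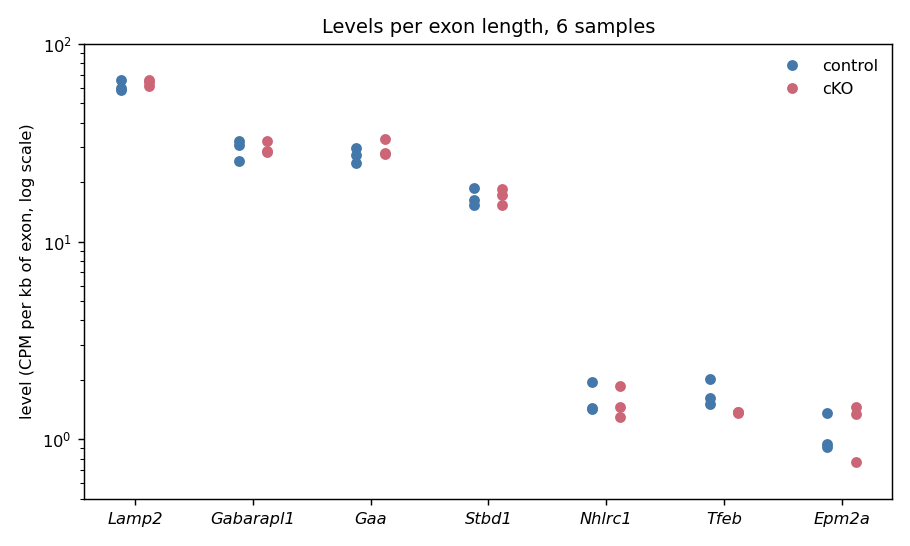
Level per kilobase of exon (vertical axis, log scale) for the 7 genes in order of their median, with 1 point per control or cKO sample. Lamp2, Gabarapl1, Gaa and Stbd1 lie above 15 CPM per kb and Nhlrc1, Tfeb and Epm2a at 2.03 CPM per kb or less, in both groups.

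Among the genes of the lysosome, Gaa, the acid alpha-glucosidase gene, lies on the plus strand of chromosome 11 (chr11:119267963-119285458) and has up to 20 exons. It was at 118.9, 99.4 and 109.6 CPM in control replicates 1 to 3 and at 110.3, 132 and 112.6 CPM in cKO replicates 1 to 3. The cKO replicate 2 was the highest and control replicate 2 the lowest, and the groups overlapped. The means were 109.3 ± 9.71 and 118.3 ± 11.95 CPM (SD, n = 3 each), and edgeR estimated a log2 fold change of 0.12 (SE 0.0868, edgeR adjusted p 0.625, exact permutation p 0.4). The 95% confidence interval ran from -0.078 to 0.31.

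Lamp2, on the X chromosome (minus strand, chrX:38401357-38456460), was at 331, 303 and 294 CPM in the controls and at 310.4, 323 and 329 CPM in the cKO samples. Control replicate 1 had the highest value of all, and the other 2 controls the lowest. The means were 309 ± 19.4 and 321 ± 9.63 CPM (SD, n = 3 each), and the log2 fold change was 0.054 (SE 0.0586, edgeR adjusted p 0.751, exact permutation p 0.5). Its interval, -0.078 to 0.19, was the narrowest of the 7 and corresponds to 0.947 to 1.14 times the control level. The counts are summed over the splice forms of Lamp2 (3 basic GENCODE transcripts), of which the LAMP2A form acts in chaperone-mediated autophagy, so the forms cannot be told apart.

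Tfeb, the regulator of lysosomal genes, had the largest difference of the 7 on the log2 scale, in either direction. It lies on the plus strand of chromosome 17 (chr17:47737037-47792416). Its level was 8.12, 6.06 and 6.51 CPM in control replicates 1 to 3 and 5.51, 5.53 and 5.47 CPM in cKO replicates 1 to 3. All 3 cKO samples lay below all 3 controls, the closest pair being control replicate 2 and cKO replicate 2. The means were 6.90 ± 1.08 CPM and 5.51 ± 0.0294 CPM (SD, n = 3 each), a difference of -20.2% of the control mean. The log2 fold change was -0.31 (SE 0.147, 95% interval -0.64 to 0.019), with an unadjusted p of 0.0619 and an adjusted p of 0.454 by edgeR, and an exact permutation p of 0.1, the smallest that 3 against 3 samples allow. DESeq2 gave -0.30 (adjusted p 0.538).

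The difference in Tfeb leaned on control replicate 1, the shallowest library, with 132 counts of the gene. Without it the log2 fold change was -0.19 (edgeR unadjusted p 0.212), and without control replicate 2 it was -0.41 (0.0332). Across the 6 fits that each left out 1 sample the edgeR adjusted p lay between 0.472 and 0.702. Without cKO replicate 3, the sample with Xist, the log2 fold change was -0.31, as large as with it. The 3 cKO values of Tfeb varied by 0.533% of their mean, less than the 7.08% that counting error alone gives at 181 to 221 counts, so their SD understates the error of the measurement.

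The other members of the TFE family were measured beside Tfeb. Tfe3, which shares targets with TFEB, was the most abundant, at 14.9 to 17.1 CPM per kb, and exceeded Tfeb by 8.42 to 11.1 times in each sample. Its difference was -0.083 on the log2 scale (SE 0.0640, edgeR adjusted p 0.639). The cKO samples of Tfe3 (53.9 to 55.4 CPM) also lay just below its controls (55.6 to 61.8 CPM), where 15.6% of all tested genes had groups that did not overlap. Mitf, known best from pigment cells, was at 0.660 to 0.788 CPM per kb, and its difference was 0.066 on the log2 scale (SE 0.155, edgeR adjusted p 0.901). Tfec had between 1 and 19 counts a library, and its value of 0.79 (SE 0.485, edgeR adjusted p 0.559) rests on those few counts.

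The genes of glycophagy overlapped between groups. Stbd1, the glycogen-binding adaptor (plus strand, chr5:92603051-92606579), was at 41.2, 34.1 and 36.1 CPM in the controls and at 38.0, 40.7 and 33.8 CPM in the cKO samples. The highest value was a control (replicate 1) and the lowest a cKO sample (replicate 3). The means were 37.1 ± 3.65 and 37.5 ± 3.49 CPM (SD, n = 3 each), which differed by 0.020 on the log2 scale (SE 0.0927, 95% interval -0.19 to 0.23, edgeR adjusted p 0.953). Its sign changed when single samples were left out.

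Gabarapl1 encodes a ubiquitin-like protein that is attached to the autophagosome membrane and that STBD1 binds (plus strand, chr6:129533192-129542331). Its level was 57.6, 54.5 and 45.2 CPM in the controls and 50.8, 50.7 and 57.3 CPM in the cKO samples. The lowest and the highest values were both controls. The means of 52.4 ± 6.46 and 52.9 ± 3.78 CPM (SD, n = 3 each) gave a log2 fold change of 0.017 (SE 0.0961, 95% interval -0.20 to 0.23, edgeR adjusted p 0.965). The table holds another gene, 1700101I11Rik, that overlaps its first bases on the minus strand, with 2 to 7 counts a library, and the counting used strand.

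Of the 4 relatives of Gabarapl1 in the Atg8 family, 0 were called by edgeR or DESeq2 and 0 had an unadjusted edgeR p under 0.05. Of all tested genes, edgeR called 0.0385%, and 11.4% had that unadjusted p. DESeq2 called 0.779% of the 14243 genes with a DESeq2 adjusted p. Gabarap was the most abundant, at 114.7 to 138.6 CPM per kb, or 4.10 to 4.79 times Gabarapl1 in each sample. Its log2 fold change was 0.040 (SE 0.0743, edgeR adjusted p 0.872). Map1lc3b, which encodes the widely used autophagosome marker LC3B, was at -0.0012, and Gabarapl2 was at -0.086 (edgeR adjusted p 0.996 and 0.705). Map1lc3a had the largest difference, 0.19 (SE 0.0972, edgeR adjusted p 0.486). Its cKO samples (27.2 to 32.1 CPM) lay just above its controls (22.6 to 27.1 CPM). The groups thus did not overlap for 1 of the 4 relatives, and for 15.6% of all tested genes.

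Laforin and malin were examined next, since their complex acts on the protein whose gene was deleted. Epm2a, which encodes laforin (plus strand, chr10:11343445-11457477), was the sparsest of the 7 genes. It had 16, 65 and 42 counts in the controls and 58, 30 and 52 counts in the cKO samples, or 0.985, 1.47 and 1.02 CPM and 1.45, 0.834 and 1.57 CPM. The lowest and the highest values were both cKO samples. The exact 95% Poisson intervals were wide: 0.563 to 1.60 CPM for control replicate 1 and 0.563 to 1.19 CPM for cKO replicate 2. The means were 1.16 ± 0.270 and 1.28 ± 0.395 CPM (SD, n = 3 each), which differed by 0.12 on the log2 scale (SE 0.308, edgeR adjusted p 0.909). The 95% interval, -0.57 to 0.81, corresponds to 0.673 to 1.76 times the control level.

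Nhlrc1, the single-exon gene of malin (minus strand, chr13:47012557-47014850), was at 4.49, 3.28 and 3.29 CPM in the controls and at 2.97, 3.36 and 4.26 CPM in the cKO samples. One sample in each group was high, control replicate 1 and cKO replicate 3, and the other 4 lay between 2.97 and 3.36 CPM. The means were 3.69 ± 0.696 and 3.53 ± 0.665 CPM (SD, n = 3 each), and the log2 fold change was -0.045 (SE 0.207, 95% interval -0.51 to 0.42, edgeR adjusted p 0.954). Per kilobase of exon, malin exceeded laforin in 5 of 6 samples, with a ratio of 0.965 to 2.15 and a median of 1.39. Over the whole GENCODE length of Epm2a, which the counts cover only in part, the ratio would be 2.94 to 6.54, above 1 in 6 of 6. That length understates laforin, so these ratios are not read as the better estimate. Over the shorter length the ratio averaged 1.57 ± 0.551 in control and 1.38 ± 0.475 in cKO samples (SD, n = 3 each), within the spread between samples.

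**Figure D3:**
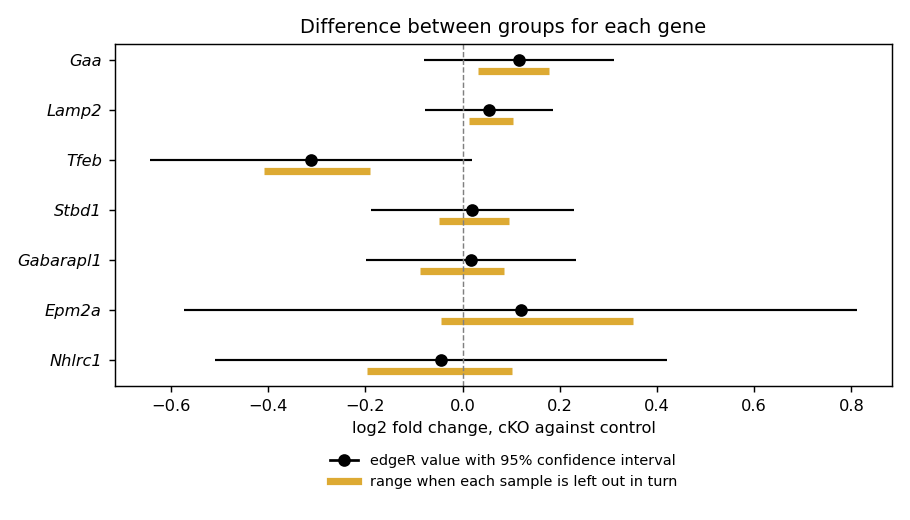
Log2 fold change of each gene, cKO against control (horizontal axis), as edgeR estimates (points) with 95% confidence intervals (black lines) and the range when each sample is left out in turn (yellow bars). Every interval includes 0, and that of Tfeb, -0.64 to 0.019, does so by the smallest margin.

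How far each gene varied between replicates followed its depth only in part. Counting error alone would give Lamp2 a coefficient of variation of 1.05% in the controls, against the 6.25% observed. For Gaa these were 1.76% and 8.88%, and for Gabarapl1 2.54% and 12.3%, so spread between pools was most of their error. For Epm2a the counting share was larger, 17.6% against 23.3% in controls and 15.1% against 30.8% in cKO samples.

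The patterns of the genes over the 6 samples were compared by Pearson's r of log2 CPM, as a description. The samples share libraries and, with n = 6, 19 to 77 of the 15576 other genes exceeded an r of 0.95 with each of the 7. In the lysosome and autophagy lists the gene most like Tfeb was Tfe3 (r 0.94), and the gene most like Gaa was the sorting receptor gene Sort1 (0.97). The closest in these lists to 4 further genes were Atp6v1d for Gabarapl1 (0.89), Atg3 for Epm2a (0.97), Rragc for Nhlrc1 (0.93) and Calcoco1 for Lamp2 (0.94). Transcripts of Lamp2 and Calcoco1 share a stretch of 140 bases at 95% identity, and Lamp2 shares such stretches with other genes too. Any part of the shared stretch in this r was not tested. Over all tested genes the closest were Fgf18 for Tfeb, Anxa6 for Gaa, Zdhhc17 for Stbd1, Arf5 for Gabarapl1, Paics for Epm2a, Dcaf12l2 for Nhlrc1 and Slc2a8 for Lamp2, with r of at least 0.98. Laforin and malin had an r of -0.068, but with n = 6 and few counts of Epm2a this cannot show whether they vary together. Among pairs of the 7, those furthest from 0 were Stbd1 and Epm2a (-0.78), Gaa and Stbd1 (0.77), Gabarapl1 and Lamp2 (0.76), and Gaa and Epm2a (-0.75).

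The remainder of the pathway was read from 7 lists of lysosome and autophagy genes that leave out the 7 genes, 142 tested genes in all, among them the Atg8 and TFE relatives described above. edgeR called 0 of them, where 0.0385% of all tested genes were called. An unadjusted p under 0.05 was seen for 6 (4.23%, where all tested genes had 11.4%). Tfec, in these lists, had no DESeq2 adjusted p. DESeq2 called 1 of the 142, and 0.779% of the 14243 genes with a DESeq2 adjusted p. That 1 gene was Gm2a, which encodes the GM2 ganglioside activator. The median log2 fold change of the 142 was -0.0036, close to that of all tested genes, with 67 above and 75 below 0. The groups did not overlap for 22 genes (15.5%, against 15.6% of all tested genes). Gm2a was at 113, 109.8 and 108.9 CPM in the controls and at 125.7, 144 and 142 CPM in the cKO samples. Its groups did not overlap, and the difference on the log2 scale was 0.31 (SE 0.0630), with an adjusted p of 0.377 by edgeR and 0.00958 by DESeq2.

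Lysosomal hydrolases had 23 of 35 genes above 0 and a median of 0.044. The gene of lowest p was Naglu, which encodes an enzyme of heparan sulfate breakdown (0.31, SE 0.108, edgeR adjusted p 0.382). Lysosomal membrane and sorting proteins had 12 of 21 above 0 and a median of 0.0056, with Gm2a the lowest p. Subunits of the V-ATPase, the proton pump that acidifies the lysosome, had 7 of 16 above 0 and a median of -0.016, led by Atp6v1h (-0.16, SE 0.0667, edgeR adjusted p 0.413). In each of these lists edgeR called 0 genes, and 1, 1 and 2 genes, in that order, had an unadjusted p under 0.05 (of 35, 21 and 16 genes, beside 0.0385% called and 11.4% at that p over all tested genes).

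Of the genes of autophagosome formation, 11 of 30 lay above 0, with a median of -0.020. Atg5, part of the conjugation machinery that attaches Atg8 proteins to the membrane, had the lowest p (-0.20, SE 0.0774, edgeR adjusted p 0.390). Cargo receptors split evenly, 6 of 12 above 0, with the ER-phagy receptor gene Retreg1 at the lowest p (-0.49, SE 0.251, edgeR adjusted p 0.489). Genes of the TFE family and of the mTORC1 nutrient branch had 6 of 24 above 0 and a median of -0.054. While mTORC1 holds TFEB in the cytosol, this list also holds Tsc1, Tsc2, Ppp3ca, Ppp3cb and Ppp3r1, whose products do not act in that direction. Its median is therefore not read as a change of a single pathway. The lowest p of the list was that of Rheb, the GTPase that activates mTORC1 (-0.13, SE 0.0594, edgeR adjusted p 0.450). edgeR and DESeq2 called 0 genes of these lists, and an unadjusted p under 0.05 was seen for 2, 0 and 0 genes, or 6.67% of the first list, beside 11.4% of all tested genes. The shares called were 0.0385% of all tested genes by edgeR and 0.779% of the 14243 genes with a DESeq2 adjusted p. Either would give less than 1 gene in a list of this size.

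**Figure D4:**
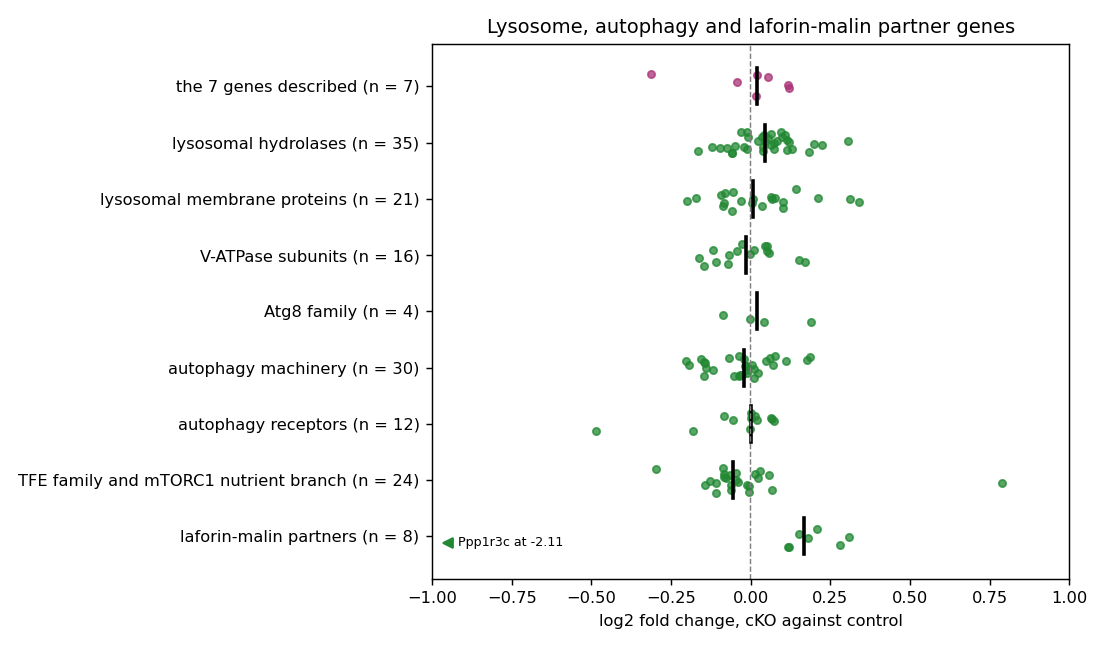
Log2 fold change, cKO against control (horizontal axis), of the 7 genes described and of the tested genes of 8 lists, 1 point per gene. Black bars give list medians and the dashed line the median of all tested genes, -0.0034. Lysosome and autophagy genes sit on both sides of that line, and the tested laforin-malin partners other than Ppp1r3c (arrow at the left edge, -2.11) all sit to its right.

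The last list held genes whose products are tied to laforin, malin or their substrate, glycogen. It was chosen with earlier results of these data known, and it includes the deleted gene, whose fall was set by the design. Of 8 tested genes edgeR called 1, Ppp1r3c itself, and 0 of the other 7, where it called 0.0385% of all tested genes. The median of the list was 0.17, and the other 7 genes lay above 0. They included Gyg (0.31), Gbe1 (0.28), Ppp1r3d (0.21), Pygb (0.18), Gys1 (0.12) and Epm2aip1 (0.12), named here after their values were seen. Gyg starts the glycogen chain, Gys1 extends it and Gbe1 branches it, whereas Pygb releases glucose from it in the cytosol. By edgeR, 5 of the 8 had an unadjusted p under 0.05 (62.5%, against 11.4% of all tested genes), or 4 of the 7 without Ppp1r3c. Among them were Ppp1r3c, the deleted gene itself, Gbe1, Pygb and Gyg. The edgeR adjusted p of the 7 was between 0.377 and 0.561. Gbe1 had the lowest p of the 7, from 16.8 ± 1.06 to 20.4 ± 1.28 CPM (SD, n = 3 each; SE 0.0870). In cKO samples its 3 values, 19.0, 20.9 and 21.4 CPM, all lay above the controls at 15.9, 18.0 and 16.4 CPM. The groups did not overlap for 5 of the 8 genes, or 4 of the 7 without Ppp1r3c, and for 15.6% of all tested genes. Prdm8, linked to a form of Lafora disease, had 1 to 10 counts a library and was not tested.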

How the data were processed

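Samples labelled testis, 3 control and 3 Ppp1r3c cKO, were analysed, grouped by sample title. The deposited values were raw counts of read pairs per gene. The authors aligned stranded paired-end reads to mm10 with STAR (version 2.5 per the submitters' processing notes) and counted RefSeq Curated genes with featureCounts of Subread 1.5.0-p1 in a strand-specific mode. No column was left unused, and every pair of libraries differed by more than sampling noise.

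edgeR 4.0.16 (R 4.3.3) was run on all 6 samples with filterByExpr (minimum count 10), TMM scaling and the quasi-likelihood test, without covariates. Adjustment was by Benjamini-Hochberg over the 15577 tested genes, and called means an adjusted p below 0.05. The SE was derived from the F statistic, and 95% intervals used the moderated degrees of freedom. CPM used TMM-scaled totals, and log2 CPM a prior count of 2. Poisson intervals cover counting error only. Exon lengths were those of GENCODE M21 (GRCm38) inside the span of each gene in the deposited table. Coordinates are those of the deposited table, and promoters those of RefSeq. P-values measure the spread between these pools, which may be technical in part.

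DESeq2 1.42.0, the study's tool, limma-voom (limma 3.58.1), RLE size factors, no filter, a stricter filter, the replicate number as a block, leaving out each sample, and thinned libraries were alternatives. The fits were tested on simulated data. The genes, lists and markers were chosen with earlier results of these data known, so no p was adjusted over a list alone. The text names the 7 genes, Ppp1r3c, sample checks, called genes or the lowest p of each pathway list, the Atg8 and TFE families, and the genes most alike. Others were named after their values were seen.

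Marker lists gave the sum of CPM and the median log2 fold change. With its range when each sample was left out, the median was -0.090 (-0.22 to -0.042) for macrophage, -0.0023 (-0.093 to 0.086) for Sertoli, 0.013 (-0.074 to 0.085) for endothelial, -0.29 (-0.53 to -0.058) for fetal Leydig, 0.37 (0.16 to 0.47) for mesonephros, -0.11 (-0.20 to -0.012) for erythroid, 0.70 (0.16 to 0.92) for pre-granulosa and -0.029 (-0.085 to 0.055) for interstitial markers. The values nearest 0 for the fetal Leydig, mesonephros and pre-granulosa lists were those without cKO replicate 3. Some single-gene values are not reported here.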

Additional observations from a re-analysis of the deposited data

How the results depend on the processing

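Under all 13 alternatives 0 of the 7 genes were called. Of 91 recomputed log2 fold changes of the 7 genes, 81 kept their direction and 10 changed sign. Gaa, Lamp2 and Tfeb kept their direction throughout, but with single samples left out they ranged from 0.031 (cKO replicate 2) to 0.18, from 0.013 (control replicate 3) to 0.10 and from -0.41 to -0.19. With single samples left out, Stbd1 ranged from -0.047 (control replicate 2 omitted) to 0.095, and was at -0.0018 and -0.042 when control replicate 3 or cKO replicate 2 was omitted. Gabarapl1 ranged from -0.088 (control replicate 3 omitted) to 0.085, with -0.043 when cKO replicate 3 was omitted, and was at -0.0084 in thinned libraries. Epm2a ranged from -0.045 (cKO replicate 3 omitted) to 0.35 and was at -0.31 in thinned libraries. Nhlrc1 ranged from -0.20 to 0.10 (control replicate 1 omitted) and was at 0.072 with cKO replicate 1 omitted. No direction is read from these 4 genes. Thinning was a single draw to the total of control replicate 1, where Epm2a had 16 counts, and depth limits this gene most.

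The number of genes called over the whole table, 6 by edgeR, was 111 with DESeq2, and the cause was not tested. It ranged from 2 to 8 when single samples were left out: 2 without control replicate 1 or control replicate 3 and 3 without cKO replicate 3. With the replicate number as a block it was 3, and the block changed no call of the 7 genes. Same-numbered samples did not deviate together from their group means (r of -0.20, -0.27 and -0.13), so the numbers were not taken to pair them. With single samples left out, medians changed sign for the lysosomal membrane (-0.011 to 0.019), V-ATPase (-0.039 to 0.0090), Atg8 (-0.059 to 0.060) and cargo receptor lists (-0.015 to 0.020). Searching for TCACGTGA in place of CACGTG gave a match in 0 of the 7 genes.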
